A study of Mus musculus with 20 samples.

Results

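The sites described here are known A-to-I editing sites annotated to 3′ UTRs in genes for which the amplicons gave few such sites. A site was taken if it was annotated to a 3′ UTR and had at least 50 reads in each of the 4 libraries of the ADAR1_WT line, and if its gene had fewer than 20 sites of that kind. This rule uses annotation and coverage and no editing level. It took 928 sites in 90 genes, out of 4371 3′ UTR sites in 183 genes with that coverage and out of 48425 sites listed in each file. The remaining 3443 sites lie in 93 genes with 20 or more sites and are called densely listed genes below.

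Editing was read by multiplex RT-PCR and amplicon sequencing in mouse embryonic fibroblasts, connective tissue cells grown from embryos. The lines are labelled ADAR1_WT (called wild type here), ADAR1_NULL, P150_KO, ADAR2_NULL and STAT2_NULL. There are 2 untreated and 2 interferon-treated libraries of every line, 20 libraries in 10 groups. Every genotype is represented by 1 line, so its effect and other differences between lines cannot be told apart, and no label names the wild-type line as a matched control. Which interferon was used, at what dose and for how long, is not stated in the labels. The assay gives editing levels and not transcript amounts, so neither the loss of the targeted genes nor fibroblast markers could be checked.

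ADAR enzymes act on RNA duplexes and turn adenosine into inosine, which is read as G in cDNA. ADAR1 is made as a constitutive p110 form, found mainly in the nucleus, and as an interferon-inducible p150 form, found mainly in the cytoplasm, where it edits 3′ UTRs whose inverted repeats fold into duplexes. ADAR2 is the product of another gene and is best known for sites in neuronal transcripts. STAT2 carries the type I interferon signal to the promoters of induced genes, the p150 promoter among them.

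Total coverage summed over all sites ran from 4389326 to 5559674 reads per library, and the median coverage of the 928 sites was 241 to 385 reads per library. Between 718 and 928 of them reached 50 reads in a library, fewest in the first untreated ADAR1-null library and next in the first treated p150-knockout library. Amplicon reads carry no molecular identifiers, so limits drawn from read counts cover counting error only. No label says whether the 2 libraries of a group are from separate cultures, and the spread that the p-values measure may therefore be technical. Levels are edited reads divided by coverage, in percent, and differences between levels are in percentage points. Positions are on mm9 and are printed as deposited, with counting from 0 or from 1 not stated.

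Most of the 928 sites were edited at very low levels. In untreated wild-type cells 329 sites had no edited read in either library, 76 had a mean level of at least 1% and 7 reached 10%. In treated wild-type cells 188 sites reached 1%, in 59 genes, 58 sites reached 10%, in 29 genes, and 11 sites reached 50%. The median over the 928 sites was 0.201% before and 0.276% after treatment, so the mean, which moved from 0.5% to 2.78%, was carried by a minority of sites. In the densely listed genes 84 of 3443 sites reached 10% in untreated and 350 in treated wild-type cells.

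Of the 928 sites, 558 in 58 genes had at least 50 reads in all 20 libraries, and their mean level compares the libraries over 1 set of sites. In wild type the mean was 0.53% and 0.464% in the untreated libraries and 2.75% and 2.73% in the treated ones. The treated libraries lay above both untreated ones, a ratio of means of 5.51. In ADAR2-null cells the libraries gave 0.404% and 0.324% untreated and 2.28% and 2.24% treated, again with no overlap. In STAT2-null cells they gave 0.52% and 0.42% untreated against 0.457% and 0.475% treated, which overlap. ADAR1-null cells gave 0.23% and 0.285% untreated and 0.266% and 0.277% treated, which also overlap. In p150-knockout cells the untreated libraries gave 0.317% and 0.328% and the treated ones 0.525% and 0.372%, with no overlap and a ratio of means of 1.39. The first treated p150-knockout library stood apart through 1 site in Cycs, described below, and without that site its mean was 0.385% against 0.373% in the other. Both still lay above the untreated ones, which stayed at 0.317% and 0.328%. Over 2324 sites in densely listed genes the mean in wild type was 1.14% untreated and 4.15% treated, a ratio of 3.65.

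**Figure D1:**
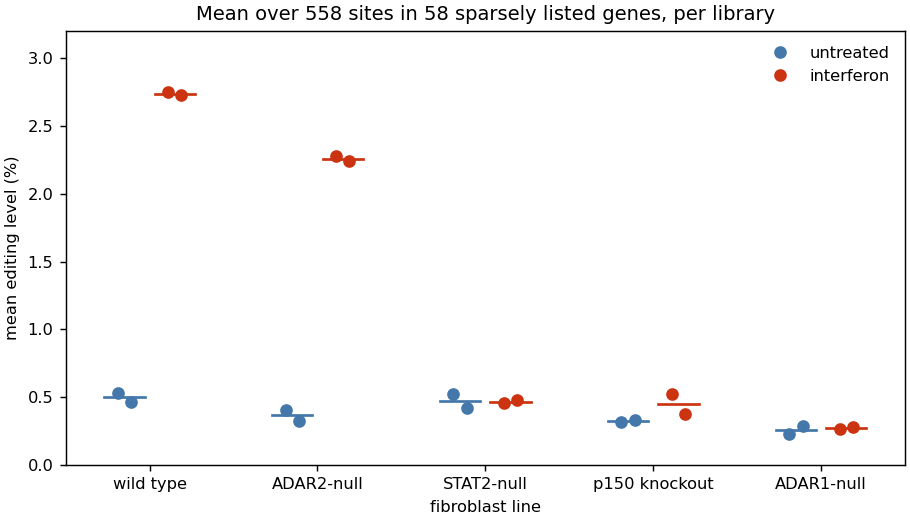
Mean editing level in percent (vertical axis) over the 558 sites covered in all libraries, by fibroblast line (horizontal axis); each point is 1 library and each bar the mean of 2. The treated wild-type and ADAR2-null libraries lie between 2.24% and 2.75%, and the other 16 libraries lie at or below 0.53%.

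The first question was which of these sites responded to interferon in each line. The test was edgeR's quasi-likelihood test on edited and unedited reads. It was run on sites covered by 50 or more reads in each library compared whose mean level over those libraries was 1% or more. Because this minimum is passed more easily by sites high in 1 of the groups, counts of called sites are given beside the share called among all sites tested. Of the 928 sites, 228 were tested in at least 1 comparison and 700 in none, and 24 genes had no tested site.

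In wild-type cells 77 of 151 tested sites rose with interferon, in 32 genes, and none fell (edgeR, adjusted p under 0.05). Of all sites tested, 41% were called in this comparison and 40.4% were called higher. The median difference over the 151 sites was 5.66 points, against 5.27 points over all 1223 sites tested. With only the wild-type libraries in the fit the count was 13 in place of 77; of the genes with the greatest rises, Mmgt1, Fubp3, Rhoa, Nrp1 and Mier1 kept their call and Agphd1, Cdh1, Pfas, Cybasc3, Atxn3, Dagla and Dcaf10 did not. Without the second untreated library it was 49. Disagreement between the 2 libraries of a group, as chi-square per degree of freedom over sites, was 7.76 in treated wild type. It was 6.08 in treated p150-knockout cells and 1.84 to 2.93 in the other groups. The fit takes the same spread for all groups at a site, so it can understate that of treated wild type in any comparison using it. The part of this in the calls was not tested.

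Mmgt1, which encodes a subunit of the endoplasmic reticulum membrane complex, held the site with the highest level. At chromosome X, position 53840820, minus strand, the untreated wild-type libraries read 15.5% and 13.7% and the treated ones 87.6% and 96.6%, a rise of 77.5 points (edgeR, adjusted p = 2.09e-04). The adjacent position 53840821 read 3.14% and 2.12% untreated and 80% and 79.5% treated. Both sites were high in both treated libraries, and the groups did not overlap. All 7 tested sites of Mmgt1 rose, the other 5 of them to means of 4.15% to 11.4%.

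Other strong sites went from near 0 to above 60%. In Fubp3, which encodes a protein that binds single-stranded nucleic acid, chromosome 2 position 31471414 read 0% and 0.641% untreated and 67.6% and 71.7% treated (edgeR, adjusted p = 3.01e-04). In Rhoa, the small GTPase that controls actin stress fibres, chromosome 9 position 108239461 read 0.816% and 1.43% untreated and 65.3% and 68.6% treated (edgeR, adjusted p = 3.62e-05). In Nrp1, a co-receptor for semaphorins and VEGF, chromosome 8 position 131028073 read 1.86% and 1.06% untreated and 63.6% and 69.1% treated (edgeR, adjusted p = 4.24e-04). Rhoa and Nrp1 have 3 listed sites each, and the next highest site in treated wild type was at 1.63% in Rhoa and 3.18% in Nrp1.

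In a second set of genes the treated libraries read 40.7% to 81%. Agphd1, named Hykk in RefSeq and encoding hydroxylysine kinase, read 14.9% and 14.7% at chromosome 9 position 54795019 before treatment and 81% and 78.1% after (edgeR, adjusted p = 0.00325). Cybasc3, named Cyb561a3 in RefSeq and a member of the cytochrome b561 family, read 2.42% and 3.21% at chromosome 19 position 10663128 and then 50% and 51.1%. Atxn3, a deubiquitinase, read 1.38% and 2.04% at chromosome 12 position 103159841 and then 47.6% and 49%. Mier1, a transcriptional regulator, read 1.18% and 2.88% at chromosome 4 position 102837344 and then 49.9% and 46.2%. Dcaf10, a substrate receptor of CUL4 ubiquitin ligases, read 4.97% and 0.667% at chromosome 4 position 45390014 and then 56.2% and 40.7%. In each of these genes the treated libraries lay at least 35 points above the untreated ones. With only the wild-type libraries in the fit, the calls at Agphd1, Cybasc3, Atxn3 and Dcaf10 were lost, with edgeR adjusted p of 0.0604, 0.0605, 0.059 and 0.0804 in that order; the call at Mier1 remained. The call at Agphd1 was also lost with limma (adjusted p = 0.0727).

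Some sites with a high level before treatment moved by many points without passing the test. The test compares odds and not points, and the reason for these missed calls was not tested. Psma3, a subunit of the 20S proteasome, had the highest untreated level, 31.7% and 31.5% at chromosome 12 position 72095616, and read 55.7% and 47.1% after treatment (edgeR, adjusted p = 0.286). Pfas, an enzyme of purine synthesis, read 32% and 24% at chromosome 11 position 68799439 and then 65.5% and 57.1% (edgeR, adjusted p = 0.151). Nras, a small GTPase of growth factor signalling, read 24.5% and 7.49% at chromosome 3 position 102870013 and then 48.4% and 43.6% (edgeR, adjusted p = 0.0962). Klhl24, a substrate adaptor of CUL3 ligases, read 10.7% and 13.5% at chromosome 16 position 20123821 and then 35.2% and 41.1% (edgeR, adjusted p = 0.0686). Atl3, a GTPase that shapes the endoplasmic reticulum, read 8.67% and 8.45% at chromosome 19 position 7612605 and then 37.2% and 32.9% (edgeR, adjusted p = 0.0534). In all 5 genes both treated libraries lay above both untreated ones. Another site with a high untreated level, Agphd1 54795039, did not rise in mean. It read 13.1% and 19.1% untreated and 0.623% and 21.4% treated (edgeR, adjusted p = 0.367). In Psma3 a neighbouring site 28 bases away, at position 72095588, read 0.737% and 0% untreated and 34% and 31.8% treated and was called (edgeR, adjusted p = 5.00e-04). That call was lost with only the wild-type libraries in the fit (edgeR, adjusted p = 0.0605).

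**Figure D2:**
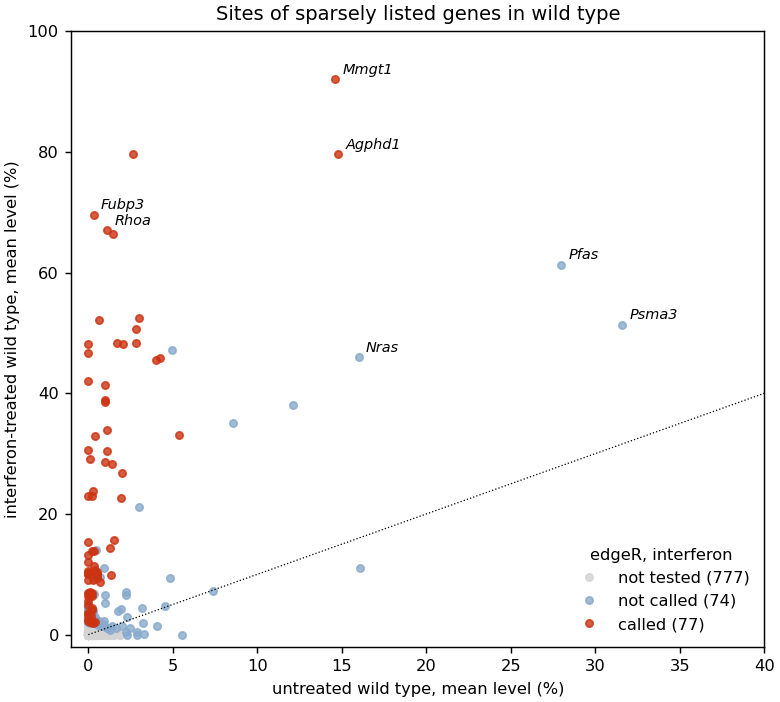
Mean level of 2 libraries in untreated (horizontal axis, percent) and treated (vertical axis, percent) wild-type cells for each of the 928 sites; red points were called by edgeR, blue points tested and not called, grey points not tested, and the dotted line marks equal levels. Called sites lie along the left edge, below 15% before treatment, while Psma3, Pfas and Nras start higher and were not called.

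The 2 treated wild-type libraries disagreed at some sites. Across the 928 sites 23 differed by at least 10 points between them and 9 by at least 20 points, against 6 and 0 in treated ADAR2-null cells. In Cdh1, which encodes E-cadherin, chromosome 8 position 109192623 read 31.1% and 73.2%, and in Dagla, the lipase that makes 2-arachidonoylglycerol, chromosome 19 position 10320223 read 6.98% and 86.2% over 215 and 65 reads. In Qpctl, a glutaminyl cyclase of the Golgi, chromosome 7 position 19725676 read 10% and 74% over 60 and 200 reads. All 3 read at most 1.32% in each untreated wild-type library and were called higher, so their direction was the same in both treated libraries but their size was not. This look at gaps between libraries was chosen after the values were seen.

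The lists of gene roles held few of these genes, and their members were described by counts only. Over all sites tested in this comparison 40.4% were called higher and the median difference was 5.27 points. Of the cytoskeleton and adhesion list (Cdh1, Nrp1 and Rhoa among its genes), 5 of 7 tested sites rose, namely 2 in Cdh1, 2 in Nrp1 and 1 in Rhoa. The median difference of 48.2 points is that of a Cdh1 site, 109192620, whose treated libraries read 28.2% and 68.2%. Of the secretory pathway list (Golga2, Mmgt1 and Rabl5), 7 of 10 rose, with a median of 8.98 points; all 7 are the sites of Mmgt1, and 0 of 2 in Golga2 and 0 of 1 in Rabl5 were called. Of the metabolism list (Agphd1 and Pank3 among its genes), 6 of 10 rose, 3 in each of these genes, with a median of 9.65 points. Pank3, a pantothenate kinase of coenzyme A synthesis, read 0% in both untreated libraries and 30.9% and 14.9% treated at chromosome 11 position 35601413.

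Of the RNA binding list (Celf4, Fubp3, Polr3f and Rbm8a), 4 of 7 tested sites rose, 2 each in Fubp3 and Polr3f, with a median of 9.97 points. Of the ubiquitin list (Klhl24, Otud7b and Psma3) 4 of 11 rose, 3 in Psma3 and 1 in Klhl24, with a median of 2.4 points. That list leaves out Atxn3, Dcaf10, Dtx3l and Zyg11b, which also have ubiquitin roles. In these genes 2 of 4, 3 of 5, 6 of 7 and 3 of 3 tested sites rose, in that order. Polr3f, a subunit of RNA polymerase III, read 0% and 3.88% untreated and 26.9% and 18.5% treated at chromosome 2 position 144365635. Of the transcription regulators (Klf16, Runx1, Tead1, Zbtb42 and Zfp597), 2 of 4 rose, with a median of 3.61 points. Zfp597, a zinc finger protein, read 0% in both untreated libraries and 13.3% and 7.98% treated at chromosome 16 position 3863072, and Zbtb42 read 0.13% and 0.0747% and then 4% and 0.453% at chromosome 12 position 113920286. The cell cycle list held Ccnyl1 alone, whose 1 tested site rose from 0% in both libraries to 2.28% and 2.12%. The transport list had 1 tested site, in the zinc transporter gene Slc39a3, which read 0% in both libraries and then 5.11% and 15.2%. Of these calls, that at Polr3f was lost without the first library of either group. Those at Zbtb42 and Ccnyl1 were lost without the second untreated library. Those at Slc39a3 and at Klhl24 20123856 were lost without either untreated library. With no minimum level the calls at Polr3f and Klhl24 20123856 were lost. With only the wild-type libraries in the fit, all of these were lost, as were those at Zfp597, Psma3 72095588 and Pank3 35601413. Of the signalling list (Camk4, Pppde2, Ptpn14 and Tgfbr1) 0 sites were tested, and the 1 tested site of the interferon list, in Ifi203, differed by -0.47 points and was not called.

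In ADAR2-null cells 72 of 131 tested sites rose, in 30 genes, and none fell (edgeR, adjusted p under 0.05), where 52.3% of all sites tested were called and 52.2% were called higher. The median difference was 3.9 points, against 4.78 over all sites. Without the second untreated ADAR2-null library the count was 46. At Mmgt1 53840820 the libraries read 3.06% and 2.88% untreated and 86.1% and 86.2% treated, and at Rhoa 0.607% and 0.512% untreated and 73.7% and 73.4% treated. Fubp3 read 0% and 2.73% and then 66.7% and 52.6%. Psma3 72095616, not called in wild type, rose from 4.47% and 7.25% to 58.1% and 55.5% (edgeR, adjusted p = 0.00132), and Pfas 68799439 rose from 3.95% and 7.81% to 58.9% and 54.9% (edgeR, adjusted p = 0.00503).

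A test of the difference between the ADAR2-null and wild-type responses called 0 of 140 sites (edgeR), where 0.175% of all sites tested were called; 7 sites had an unadjusted p under 0.05, and limma called 0. For Psma3 72095616 that difference was 31.2 points (edgeR, adjusted p = 0.372). Igf2 149839178, which rose by 53.7 points in ADAR2-null cells and read 0% in every wild-type library, was not called either. Nor was Cdh1 109192623, which rose by 51.5 points in wild type. In ADAR2-null cells it read 0.877% and 0% untreated and 1.79% and 3.38% treated. The missed threshold does not show that the responses were alike.

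In the other lines no site of these genes was called. STAT2-null cells had 54 tested sites, of which 0 were called, 2 had an unadjusted p under 0.05 and limma called 0; 0% of all sites tested were called there. P150-knockout cells had 27 tested sites with 0 called, 1 at an unadjusted p under 0.05 and 0 with limma, where 1.65% of all sites were called; leaving out the first treated library gave 2 calls and leaving out the second gave 4. ADAR1-null cells had 19 tested sites with 0 called, 2 at an unadjusted p under 0.05 and 0 with limma, where 0% of all sites were called. At Mmgt1 53840820 STAT2-null cells read 8.36% and 10.1% untreated and 10.5% and 12.8% treated. Psma3 72095616 read 36.3% and 26.5% untreated and 27.7% and 31.8% treated in that line, so the groups overlap.

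The differences between responses were tested directly. The response of p150-knockout cells was smaller than that of wild type at 13 of 99 tested sites, in 9 genes, and larger at none (edgeR, adjusted p under 0.05); 17.2% of all sites tested were called and 17% were called smaller. That of STAT2-null cells was smaller at 21 of 117 sites, in 15 genes, and larger at none, where 13.8% of all sites were called and 13.7% were called smaller. Limma called 49 and 46 sites, and with only the groups compared in the fit edgeR called 2 and 10. Leaving out 1 library gave 2 to 15 calls for p150-knockout cells, with 6 without the first untreated wild-type or the first treated knockout library and 4 and 2 without the first and second untreated knockout libraries. It gave 7 to 20 calls for STAT2-null cells, with 9 to 11 without either untreated wild-type library, either treated STAT2-null library or the first untreated one, and 7 without the second untreated one.

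Between treated cells of the knockout lines and treated wild type, most strong sites were far lower. ADAR1-null cells were lower at 95 of 147 tested sites, in 36 genes, and higher at none, with 69.5% of all sites called, all of them lower. P150-knockout cells were lower at 87 of 133, in 33 genes, and higher at none, with 64.5% of all sites called and 63.9% called lower. STAT2-null cells were lower at 81 of 151, in 32 genes, and higher at none, with 40.9% of all sites called and 39.8% called lower. With only the groups compared in the fit the STAT2-null count was 42, and without the first or second treated STAT2-null library it was 42 and 33. These 3 comparisons share the treated wild-type libraries, so they are not independent of each other.

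Site by site, treated ADAR1-null libraries read 0.269% and 0.166% at Mmgt1 53840820, 0% and 0% at Agphd1 54795019 and 0.272% and 0.126% at Rhoa. Treated p150-knockout libraries read 0.371% and 0.234% at Mmgt1, 0.562% and 0.412% at Fubp3 and 0.364% and 1.49% at Nrp1. Treated STAT2-null libraries read 1.67% and 4.61% at Fubp3, 9.88% and 17.1% at Agphd1 and 2.53% and 2.26% at Rhoa. All lay below both treated wild-type libraries by over 50 points. Over the 58 sites at 10% or more in treated wild type, a threshold set after the values were seen, the median level was 31.8% there, 19.2% in treated ADAR2-null, 0.891% in treated STAT2-null, 0.226% in treated p150-knockout (47 sites covered) and 0.0952% in treated ADAR1-null cells. These medians describe sites picked for a high level in treated wild type.

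**Figure D3:**
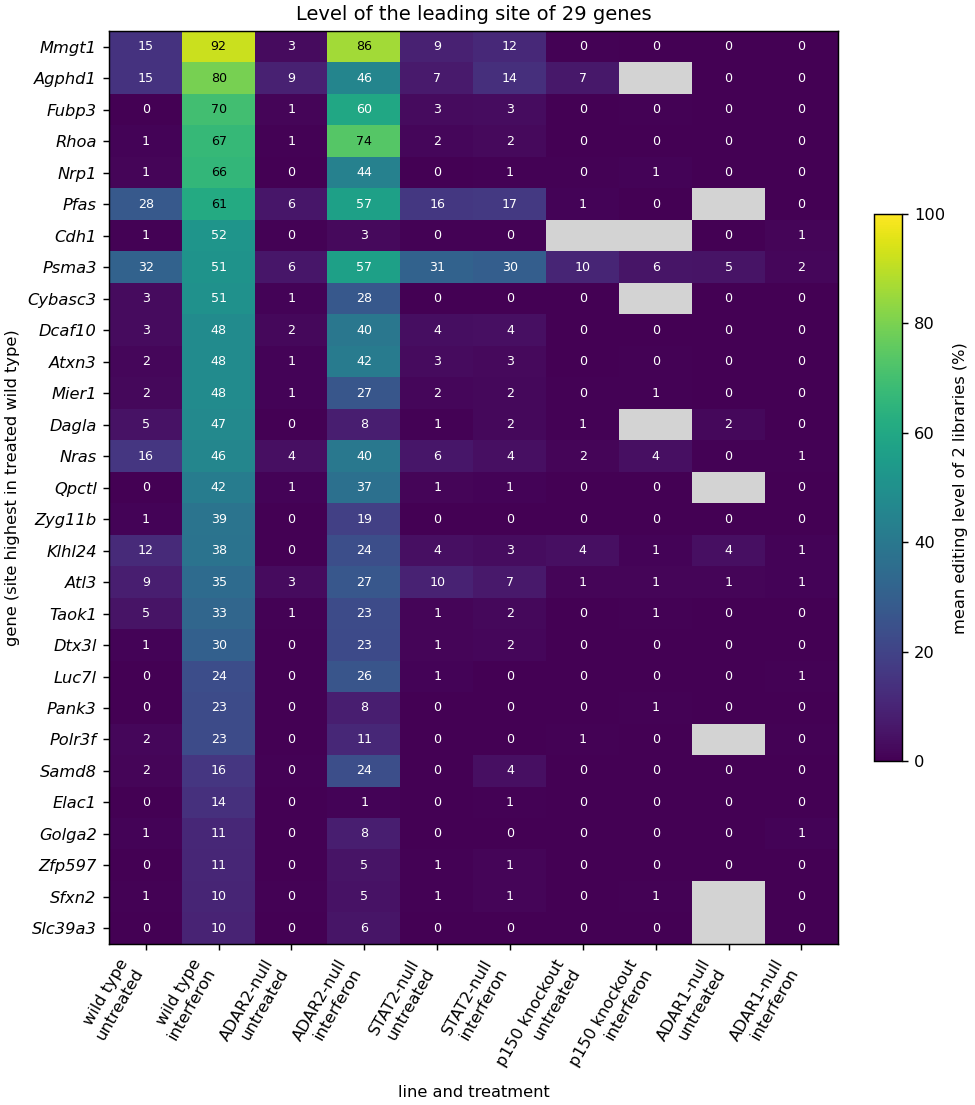
Mean level of 2 libraries (colour and printed number, percent) of the site highest in treated wild type in each of the 29 genes with a site at 10% or more there (rows), in the 10 groups (columns); grey marks fewer than 50 reads in a library. The treated wild-type column reads 10% or more in every row by construction, the treated ADAR2-null column runs from 86.1% in Mmgt1 to low levels such as 2.59% in Cdh1, and Psma3 is the one gene above 20% in untreated and in treated STAT2-null cells.

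Treated ADAR2-null cells differed from treated wild type at 3 of 167 tested sites, 2 higher and 1 lower (edgeR), where 2% of all sites were called, 0.445% higher and 1.56% lower. Both higher sites are in Igf2, the insulin-like growth factor 2 gene. Position 149839178 on chromosome 7 read 57.5% and 54.8% in treated ADAR2-null libraries and 0% in both treated wild-type libraries, where 0 of 322 reads were edited, which allows a level of up to 0.932% (edgeR, adjusted p = 0.00332). It read 3.46% and 1.43% in untreated ADAR2-null cells and at most 0.885% in every library of the other 4 lines. Position 149839165, 13 bases away, read 10.7% and 14.2% in treated ADAR2-null cells and at most 0.694% elsewhere, untreated ADAR2-null libraries included. The lower site is Cdh1 109192623, at 1.79% and 3.38% against 31.1% and 73.2% (edgeR, adjusted p = 0.0477), a call lost without the second treated wild-type or either treated ADAR2-null library. With only the groups compared in the fit no site was called, limma called 5, and edgeR called 12 without the first treated wild-type library, 0 without the first and 1 without the second treated ADAR2-null library.

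Untreated cells had fewer sites to compare. ADAR1-null cells were lower than wild type at 11 of 33 tested sites, in 10 genes, and higher at none (edgeR), against 49.2% of all sites called and 49% called lower. Psma3 72095616 read 4.97% and 5.36% against 31.7% and 31.5% (edgeR, adjusted p = 0.00425), Agphd1 54795019 read 0% and 0% against 14.9% and 14.7%, and Mmgt1 53840820 read 0% and 0.161% against 15.5% and 13.7%. Without the first untreated ADAR1-null library the count was 7. It was 5 with no minimum level and 4 with only the groups compared. The call at Psma3 was lost in both of these fits (edgeR, adjusted p = 0.0698 and 0.067), while those at Agphd1 and Mmgt1 remained.

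P150-knockout cells were lower at 12 of 48 tested sites and higher at 1 (edgeR), against 33.1% of all sites called, 32.5% lower and 0.58% higher. Pfas 68799439 read 0% and 1.63% against 32% and 24% (edgeR, adjusted p = 0.00564), and Mmgt1 53840820 read 0.621% and 0.175%. Psma3 72095616 read 9.74% and 10.8%, below both wild-type libraries, and was not called (edgeR, adjusted p = 0.0607). The call at Pfas was lost without the first knockout library and with only the groups compared. The count of 13 calls was 6 with no minimum level and 2 with only the groups compared. It was 5 and 8 without the first and second untreated wild-type library and 4 without either knockout library.

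ADAR2-null cells were lower at 4 of 55 tested sites and higher at 1 (edgeR), against 13.6% of all sites called, 12.9% lower and 0.68% higher. Klhl24 20123821 read 0.346% and 0.408% against 10.7% and 13.5% (edgeR, adjusted p = 0.00429), and Psma3 72095616 read 4.47% and 7.25% against 31.7% and 31.5% (edgeR, adjusted p = 0.0347). Apaf1, which forms the apoptosome, read 0.126% and 0% against 2.4% and 2.09% at chromosome 10 position 90453454. The higher site, in Leprotl1 at chromosome 8 position 35199999, read 1.87% and 2.56% against 0.162% and 0.136%. With only the groups compared in the fit 0 sites were called, and with no minimum level the calls at Psma3 and Apaf1 were lost. Leaving out 1 library gave 2 calls without either wild-type library or the first ADAR2-null library, and 1 without the second. The call at Psma3 was lost without any 1 of the 4 libraries and that at Apaf1 without either ADAR2-null library.

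STAT2-null cells were lower at 2 of 62 tested sites (edgeR), against 2.95% of all sites called and 1.71% called lower. These are Agphd1 54795039, at 0.391% and 0.224% against 13.1% and 19.1% (edgeR, adjusted p = 0.0466), and Rabl5, named Ift22 in RefSeq and part of intraflagellar transport, at 0% in both libraries against 2.54% and 3.98% (edgeR, adjusted p = 0.0278). Neither call remained with only the groups compared. The call at Agphd1 was also lost with limma and with the replicate block. Leaving out the first untreated wild-type library gave 1 call, and leaving out the second, or either STAT2-null library, gave 0.

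Als2cl, which encodes a relative of the Rab5 exchange factor alsin, had another order of lines. At chromosome 9 position 110802807 untreated wild type read 6.79% and 7.92% and treated wild type 7.08% and 7.23% (edgeR, adjusted p = 0.978). ADAR1-null cells read 11.4% and 10.4% untreated and 8.86% and 9.3% treated, the highest mean of any site here in untreated ADAR1-null cells. Those levels lay above both wild-type libraries in each treatment, and neither difference passed the test (edgeR, adjusted p = 0.555 untreated and 0.739 treated). ADAR2-null cells read 0.725% and 0.274% untreated (edgeR, adjusted p = 0.0365) and p150-knockout cells 0.498% and 0.818% (edgeR, adjusted p = 0.0203), both below wild type. The ADAR2-null call was lost without any 1 of the 4 libraries. The p150-knockout call was lost without the second untreated wild-type library and without either knockout library. Both untreated calls were also lost with no minimum level and with only the groups compared. Treated p150-knockout cells read 0.256% and 1.05%, below treated wild type (edgeR, adjusted p = 0.0117). Treated ADAR2-null cells read 1.77% and 0%, also below, and were not called (edgeR, adjusted p = 0.174).

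**Figure D4:**
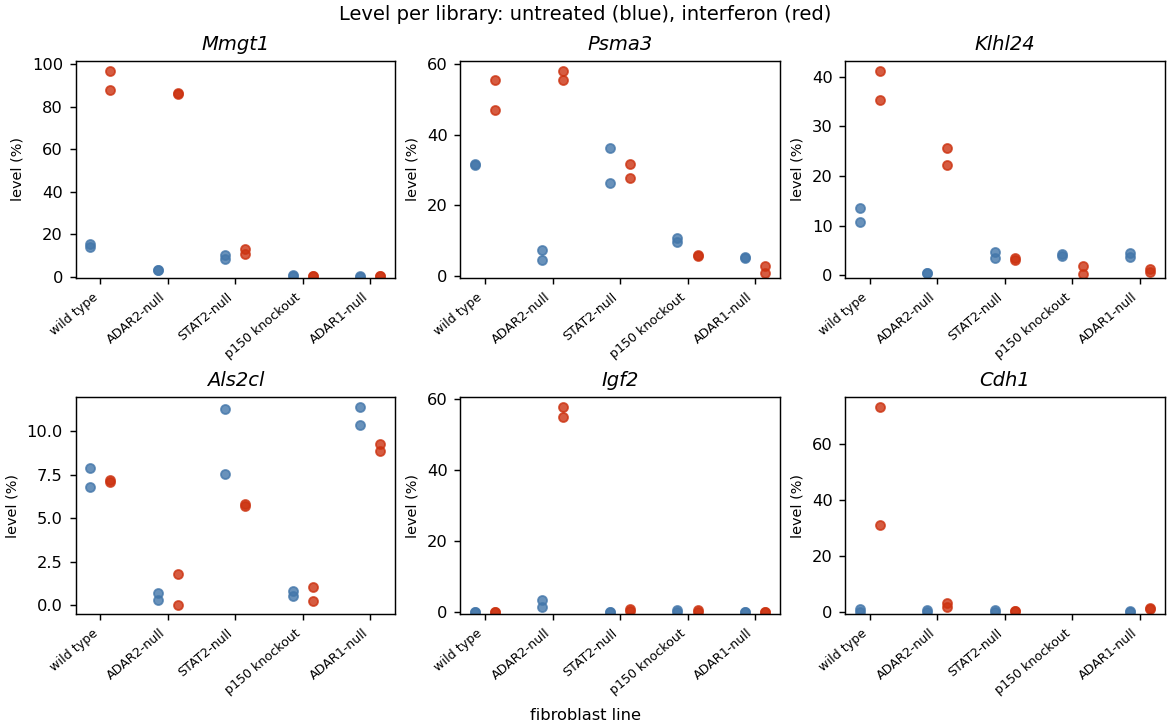
Editing level in percent (vertical axes, scaled per panel) of the sites Mmgt1 53840820, Psma3 72095616, Klhl24 20123821, Als2cl 110802807, Igf2 149839178 and Cdh1 109192623 in each library, by fibroblast line; groups with a library under 50 reads are left out. Als2cl shows no rise with interferon, Igf2 is high in treated ADAR2-null cells alone, and the treated wild-type libraries of Cdh1 lie 42.1 points apart.

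Single libraries also stood out in the knockout lines. In Cycs, which encodes cytochrome c, chromosome 6 position 50512701 read 78.2% over 220 reads in the first treated p150-knockout library and 0% over 325 reads in the second, and at most 3.64% in every other library. Another Cycs site, 50512588, read 13.3% and 0.993% in untreated ADAR1-null cells, the first of these libraries being the one with the fewest covered sites. Rbm8a, a component of the exon junction complex, read 6.17% and 0% there at chromosome 3 position 96436636. The libraries of treated wild type lay further apart at this Rbm8a site, at 17.9% and 0.658%, and those of treated ADAR2-null cells read 6.29% and 1.39%. The part of these libraries' depth in the gaps was not tested.

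Editing within a gene was concentrated. In the 29 genes with a site at 10% or more in treated wild type, the highest site carried a median of 55.3% of the gene's summed level, against 25.1% in the 62 densely listed genes with such a site; a gene with fewer listed sites has fewer to share the sum. In 13 of the 29 genes 1 site reached 10%, and the most was 8 sites, in Pfas. The highest share was 98.3% in Cybasc3, followed by 97% in Rhoa, and the lowest was 18.7% in Pfas. In Pfas, whose 19 listed sites span 81 bases, 8 sites had means of 15.3% to 61.3%. In Dtx3l, an E3 ubiquitin ligase that pairs with PARP9, the top site at chromosome 16 position 35927002 read 1.01% and 1.18% untreated and 31.5% and 29.4% treated, while the next, at 35926931, read 23.7% and 22% treated.

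The identity of the highest site was mostly shared between the responding lines. In 26 of the 29 genes it was the same position in treated ADAR2-null as in treated wild type, and in 16 of 29 it was also the highest in untreated wild type. Sites at 10% or more lay mostly near the highest site, without an even decline. Of 15 sites 1 base away, 6 reached 10%, and of 30 sites 2 to 5 bases away, 3 did. Of 79 sites 6 to 20 bases away, 5 did, and of 107 sites 21 to 50 bases away, 13 did. Those 13 include the Pfas sites at 26, 33, 37, 39, 40 and 45 bases, so this bin leans on 1 gene. Of 43 sites 51 to 100 bases away, 2 did, and of 37 sites 101 to 300 bases away, 0 did. The highest of those 37 was at 3.98%. Sites of 1 gene share an amplicon or a few, and these distances were looked at after the values were seen.

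**Figure D5:**
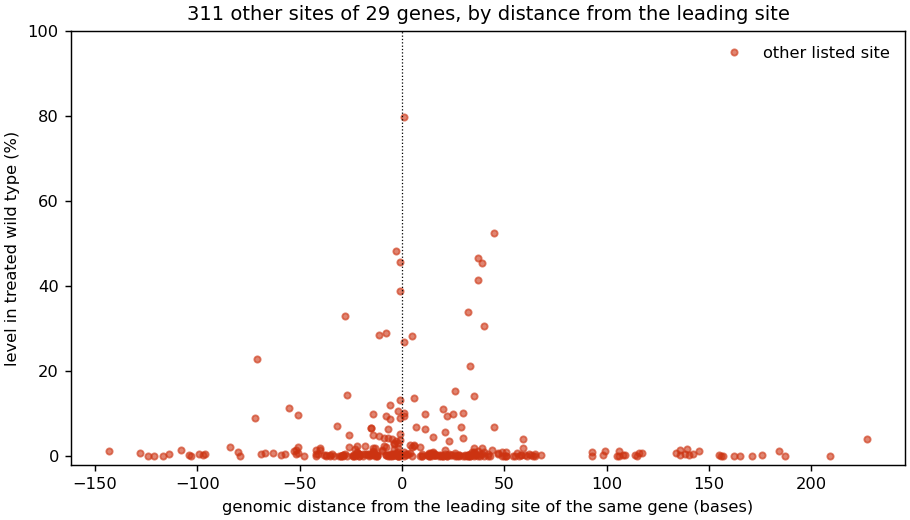
Mean level in treated wild type (vertical axis, percent) of the 311 other listed sites in the 29 genes, by genomic distance in bases from the gene's highest site (horizontal axis); each point is 1 site. Sites at 10% or more lie within 50 bases on either side, apart from 2 sites at 51 to 100 bases, the higher at 22.9%, and no site beyond 100 bases exceeds 3.98%.

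Next to the threshold of 20 listed sites, the highest site of each gene in treated wild type was compared as a description. Of the genes with 19 listed sites, Pfas read 65.5% and 57.1% and Rbm8a 17.9% and 0.658%. The libraries of the other 3, Star among them at 5.77% and 0%, read 0% to 16.1%. The libraries of the 4 genes with 20 listed sites that were compared read 13.5% to 88.3%, from Cbfa2t2 at 13.5% and 20.7% to Trove2 at 71.9% and 88.3%. Among genes with 1 to 5 listed sites 5 of 24 had a site at 10% or more, among those with 6 to 10 sites 6 of 21, with 11 to 15 sites 12 of 24 and with 16 to 19 sites 6 of 21.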

How the data were processed

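Multiplex RT-PCR amplicons were sequenced in 20 libraries of mouse embryonic fibroblasts. Per the submitters' processing notes, reads were handled with BWA and SAMtools on mm9; no version or filter is stated there. Per the file headers, the authors deposited coverage and edited reads per site as counts, and the level as a fraction. That fraction matched edited reads over coverage within 0.0005, and levels were recomputed from the counts. No mm9 genome was used, so no sequence is given.

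Counts were tested with edgeR 4.0.16 in R 4.3.3 (methylation design matrix, glmQLFit, glmQLFTest, two-sided), with 1 coefficient per group over all 20 libraries and Benjamini-Hochberg adjustment over all sites tested; a site was called under 0.05. The minima were 50 reads in every library compared and a mean of 1% over them. The code was checked on simulated counts for bias of the estimate and for false calls, with limits set after the result was seen. An earlier requirement on the share of truly changed sites called was not met and was dropped. Alternatives were 100 reads, no minimum level, limma 3.58.1 on log2 ratios with 0.5 added, a replicate block, only the groups compared, and leaving out each library. Tables and figures used Python 3.11.15, pandas 2.3.3, numpy 2.4.6 and matplotlib 3.10.9.

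The genes named had the greatest differences among called sites whose groups did not overlap, or the highest untreated levels, or belonged to the role lists. One called site of untreated p150-knockout cells is counted but not reported here. Members and lists were chosen with earlier results of these data known. RefSeq held 74 of 90 gene symbols directly and 8 as synonyms. Correlations of same-numbered libraries' deviations ran from -0.307 to 0.266, so the numbers were not used as pairs.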

Additional observations from a re-analysis of the deposited data

Results flagged for a closer look

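The interferon response of 2 lines differed from that of wild type by a test of the difference itself (edgeR). For p150-knockout cells this held at 13 of 99 tested sites (13.1%), where 17.2% of all sites tested were called. For STAT2-null cells it held at 21 of 117 (17.9%), where 13.8% of all sites tested were called. All of these 13 and 21 sites had the smaller response in the knockout line.

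Among the named sites, the p150-knockout response was smaller by these differences of responses in percentage points: -77.6 at Mmgt1 53840820, -45.8 at Mier1 102837344, -37.5 at Zyg11b 107903225 and -32.7 at Psma3 72095588. The edgeR adjusted p was 0.0056, 0.0296, 0.028 and 0.0146. Zyg11b encodes a substrate adaptor of CUL2 ubiquitin ligases. Its site read 0.868% and 1.13% in untreated and 38.6% and 38.5% in treated wild type, and at most 0.251% in each p150-knockout library. The call at Mmgt1 was lost without the first untreated p150-knockout library and that at Psma3 without the second. Mier1 kept its call in 3 of 8 fits that left out 1 library and Zyg11b in 4 of 8. Both also lost it with no minimum level (edgeR, adjusted p = 0.151 and 0.116) and with only the groups compared (0.0777 and 0.0515), as did Psma3 in the latter (0.0777); the call at Mmgt1 remained in both.

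For STAT2-null cells the differences were -77.2 at Mmgt1 53840821, -69.1 at Fubp3 31471414, -65.1 at Rhoa 108239461 and -48.5 at Cdh1 109192620. The edgeR adjusted p was 0.00516, 0.00821, 0.00441 and 0.0476. The first 3 kept their call in 8 of 8 fits that left out 1 library, and Cdh1 in 1 of 8. Cdh1 also lost its call with no minimum level (edgeR, adjusted p = 0.148), with the replicate block (0.0529) and with only the groups compared (0.133).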

How the results depend on the processing

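No called site changed direction under any setting run. This was largely fixed in advance, because direction was read from group means, which only leaving out a library can alter. Where the groups did not overlap, leaving out 1 library could not reverse it either. The small mean differences of ADAR1-null and STAT2-null cells took either sign with 1 library left out. Counts of called sites depended most on which libraries entered the fit. With only the groups compared in the fit, they were 13 for the interferon response of wild type, 4 for ADAR1-null, 2 for p150-knockout, and 0 for both STAT2-null and ADAR2-null cells against wild type untreated, 0 and 42 for treated ADAR2-null and STAT2-null cells, and 2 and 10 for the differences of the p150-knockout and STAT2-null responses. With no minimum level they were 5 and 6 for untreated ADAR1-null and p150-knockout cells, 5 for treated ADAR2-null cells and 8 for the p150-knockout difference. With limma they were 5 for treated ADAR2-null cells and 49 and 46 for the 2 differences. The cause was not tested.

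With the replicate block the wild-type response had 78 calls and untreated STAT2-null cells 1; no other count moved by over 1.5 times under it. The same numbers do not pair libraries by any label. Crossed replicate numbers, a block chosen after seeing the data, gave 1 call for untreated STAT2-null and 1 for treated ADAR2-null cells.

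Leaving out 1 library gave 49 to 76 calls for the wild-type response, 46 to 57 for ADAR2-null, 0 to 4 for p150-knockout and 0 to 0 for ADAR1-null and STAT2-null cells. Untreated against wild type it gave 7 to 11 for ADAR1-null, 4 to 8 for p150-knockout, 1 to 2 for ADAR2-null and 0 to 1 for STAT2-null cells. Treated it gave 72 to 98, 70 to 80, 0 to 12 and 33 to 74 in the same order. For the differences it gave 2 to 15 for p150-knockout, 7 to 20 for STAT2-null and 0 to 0 for ADAR2-null cells.

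The mean difference over the 558 sites, 2.24 points in wild type and 1.9 in ADAR2-null cells, was 2.32 and 1.84 with 100 reads and 2.44 and 2.15 as a mean over genes. Without 1 library it was 2.21 to 2.28 in wild type, 1.86 to 1.94 in ADAR2-null, 0.0493 to 0.202 in p150-knockout, -0.0138 to 0.0413 in ADAR1-null and -0.0542 to 0.0459 in STAT2-null cells.

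Of 74 named tests, 38 lost their call with only the groups compared, 15 with no minimum level, 4 with limma and 4 with the block. With 2 libraries a group, a site that was not called may still have changed.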
